A study of Mus musculus with 8 samples.

Results

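Immediate early genes, the genes that a cell transcribes first after a stimulus, were followed in brown adipose tissue (BAT) of single mice. The 10 genes *Fos*, *Fosb*, *Fosl2*, *Jun*, *Junb*, *Jund*, *Egr1*, *Egr2*, *Ier2* and *Ier3* were found by symbol among the 44674 gene identifiers of the count table, and all 10 passed the filter on low counts. BAT of 8 male mice was studied by mRNA sequencing. The 4 Ox1RΔSERT mice (Ox1R fl/fl, Sert-Cre tg/wt) lack the orexin receptor Ox1R in cells in which the promoter of the serotonin transporter drives Cre, and the 4 control mice (Ox1R fl/fl, Sert-Cre wt/wt) came from the same breeding without Cre. All 8 mice had loxP-flanked Ox1R alleles and a high-fat diet (HFD) from 4 to 18 weeks of age, and BAT was taken between 14 and 16 h when a hyperinsulinemic-euglycemic clamp ended. A clamp of this kind infuses insulin at a set rate and adjusts a glucose infusion until blood glucose holds. Sert-Cre also acts in some cells outside the serotonergic system, and the deletion was not aimed at BAT, where *Slc6a4*, the gene of the serotonin transporter, had 6 to 21 counts a mouse.

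Immediate early genes need no new protein for their induction, and their mRNAs rise within minutes of a signal and fade soon after it. Growth factors, insulin, cytokines and cAMP reach them through kinases that act on SRF with its ELK partners and on CREB, and noradrenaline, the transmitter of the sympathetic nerves of BAT, acts through cAMP. Proteins of the *Fos* and *Jun* families pair as AP-1, a transcription factor, EGR1 and EGR2 are zinc finger transcription factors, and IER2 and IER3 are small early proteins. Many of these mRNAs carry AU-rich elements in their 3′ UTR, to which the decay factor ZFP36 binds.

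The sequence before the start sites was read for members that stood apart in different ways between the groups, to show the elements that signals can act on. The 220 bases before the RefSeq start, or before the GENCODE gene start where that lies further upstream, are given 5′ to 3′. They are on the strand of the gene, for *Fos* (chr12:85473670-85473889, plus strand), *Fosb* (chr7:19310052-19310271, minus strand), *Junb* (chr8:84978749-84978968, minus strand) and *Ier3* (chr17:35821464-35821683, plus strand), from RefSeq on GRCm38.p6. Capitals mark TGACG, the first 5 bases of the cAMP response element, TATAAA, the EGR site GCGNGGGCG and the NF-kB site.
Fos: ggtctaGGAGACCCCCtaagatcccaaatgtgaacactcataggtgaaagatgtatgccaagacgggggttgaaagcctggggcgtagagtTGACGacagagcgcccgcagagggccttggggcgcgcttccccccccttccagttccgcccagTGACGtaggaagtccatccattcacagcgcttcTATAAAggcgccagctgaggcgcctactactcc
Fosb: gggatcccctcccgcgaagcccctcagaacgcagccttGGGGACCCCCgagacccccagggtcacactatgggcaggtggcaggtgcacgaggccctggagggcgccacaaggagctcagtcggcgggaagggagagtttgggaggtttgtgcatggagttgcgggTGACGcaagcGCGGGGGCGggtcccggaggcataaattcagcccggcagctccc
Junb: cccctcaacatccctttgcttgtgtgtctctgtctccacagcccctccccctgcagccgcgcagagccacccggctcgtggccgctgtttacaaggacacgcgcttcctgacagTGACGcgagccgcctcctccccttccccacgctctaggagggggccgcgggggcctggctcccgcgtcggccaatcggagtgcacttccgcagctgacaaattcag
Ier3: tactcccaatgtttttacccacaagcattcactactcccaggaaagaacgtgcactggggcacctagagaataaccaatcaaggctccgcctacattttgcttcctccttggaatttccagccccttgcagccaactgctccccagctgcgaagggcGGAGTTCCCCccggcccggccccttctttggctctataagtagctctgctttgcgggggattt

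Counted from the RefSeq start, *Fos* held TGACG at 66 to 62 and at 129 to 125 bases before it, *Fosb* at 60 to 56 and *Junb* at 106 to 102, while the printed stretch of *Ier3* held none. Of the 250 bases before the RefSeq start, 244 of *Fosb* and 221 of *Ier3* lay before the gene start as well. The printed stretches of these genes therefore end short of the RefSeq start. Over the 250 bases before each start, read on both strands, TGACG was present in 6 of the 12 windows of the 8 members with an entry (*Fos*, *Fosb*, *Junb* and *Egr2*) and in 17.8% of 32851 mouse promoters. *Egr2* has 5 of these windows, which partly overlap, 1 for each start site, and the other members have 1 each. The NF-kB site was present in 4 of the 12 windows (*Fos*, *Fosb*, *Fosl2* and *Ier3*) and in 3.90% of promoters, the EGR site in 2 (*Fosb* and *Fosl2*) and in 4.70%, and TATAAA in 1 (*Fos*) and in 12.4%. The CArG box, the site of SRF, lay in 4 windows, all of *Egr2* and none of its first start site, and in 1.47% of promoters. The windows of *Fosl2* and of *Egr2* start sites 2 to 5 lie inside the annotated gene and not before it. They hold every CArG box, every TGACG of *Egr2*, and the EGR and NF-kB sites of *Fosl2*. The window of *Jund* ends at 70697738, short of its gene start at 70698949. The whole cAMP response element TGACGTCA (1.55% of promoters) and the AP-1 site TGACTCA (4.46%) were in none of the 12 windows. TGACG is part of TGACGTCA, and these matches describe letters in a window and not bound sites. Sites farther than 250 bases before a start were not read, so a window without a CArG box does not show that its gene has none. *Egr1* and *Ier2* were not among the sequences. On GRCm38, *Fos* lies on chromosome 12 (85473890 to 85477273) with 4 exonic blocks, *Fosl2* on chromosome 5 (32135801 to 32157842, plus strand) with 4 exonic blocks, and *Ier3* on chromosome 17 (35821684 to 35822923) with 2. *Jun*, *Jund* and *Ier2* have 1 exon each.

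In the 3′ UTR, the AU-rich heptamer TATTTAT was present in 6 of the 10 members and in 27.6% of 12839 tested genes with a 3′ UTR. *Ier3* held 4 copies in 613 bases and *Fosl2* held 3 in 4653 bases. *Fos* held 2 in 815 bases, and *Fosb*, *Jun* and *Jund* held 1 each, while *Junb*, *Egr1*, *Egr2* and *Ier2* held none. The shorter ATTTA was present in 9 of the 10 members, all but *Ier2*, and in 66.0% of genes. A stretch of each of the UTRs of *Fos* and *Ier3* is given with the heptamers in capitals, 1 copy for *Fos* and 2 close copies for *Ier3*.
Fos: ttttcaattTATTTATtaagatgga
Ier3: tctaattaaTATTTATgTATTTATg

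Libraries held 35852667 to 50063257 counts. In a principal component analysis, Ox1RΔSERT mice 11601 and 11708 stood apart from the other 6 mice on the first component, which held 52.2% of the variance, so fold changes and counts are also given without them. Brown adipocyte markers were abundant in all 8 mice, with *Ucp1*, the uncoupling protein of thermogenesis, at normalized values of 3731 to 4895 in control mice and 2513 to 3817 in Ox1RΔSERT mice. *Hcrtr1*, which encodes Ox1R, had 0, 5, 2 and 3 counts in control mice 10684, 11253, 11560 and 11563 and 0, 3, 5 and 4 in Ox1RΔSERT mice 11243, 11601, 11613 and 11708, which does not check a deletion made in serotonergic cells. In bulk tissue, fewer cells of a type and less RNA per cell cannot be told apart.

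The immediate early genes fell into 3 patterns. *Fosl2*, *Junb* and *Ier3* were higher in each of the 4 Ox1RΔSERT mice than in every control mouse. *Fos*, *Fosb*, *Egr1* and *Egr2* were high in mice 11601 and 11708, with the other Ox1RΔSERT mice at or near the range of the control mice. *Jun*, *Jund* and *Ier2* overlapped between the groups. The median log2 fold change of the 10 members was 0.85, against 0.0021 over all 14489 tested genes. edgeR's quasi-likelihood test called 0 of the tested genes at an adjusted p under 0.05 (0%), with a lowest adjusted p of 0.316, and 2201 genes had an unadjusted p under 0.05. Of the members, 4 had an unadjusted p under 0.05 and were higher (*Ier3*, *Junb*, *Fosl2* and *Fos*), where 10.2% of all tested genes were higher at that p. Groups did not overlap in 3 members, against 2.69% of tested genes in that direction. DESeq2 called 265 genes at an adjusted p under 0.05, with *Fos*, *Junb* and *Ier3* among those that were higher (1.54% of the 15119 genes that DESeq2 adjusted), and *Fosl2* at 0.0703.

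**Figure D1:**
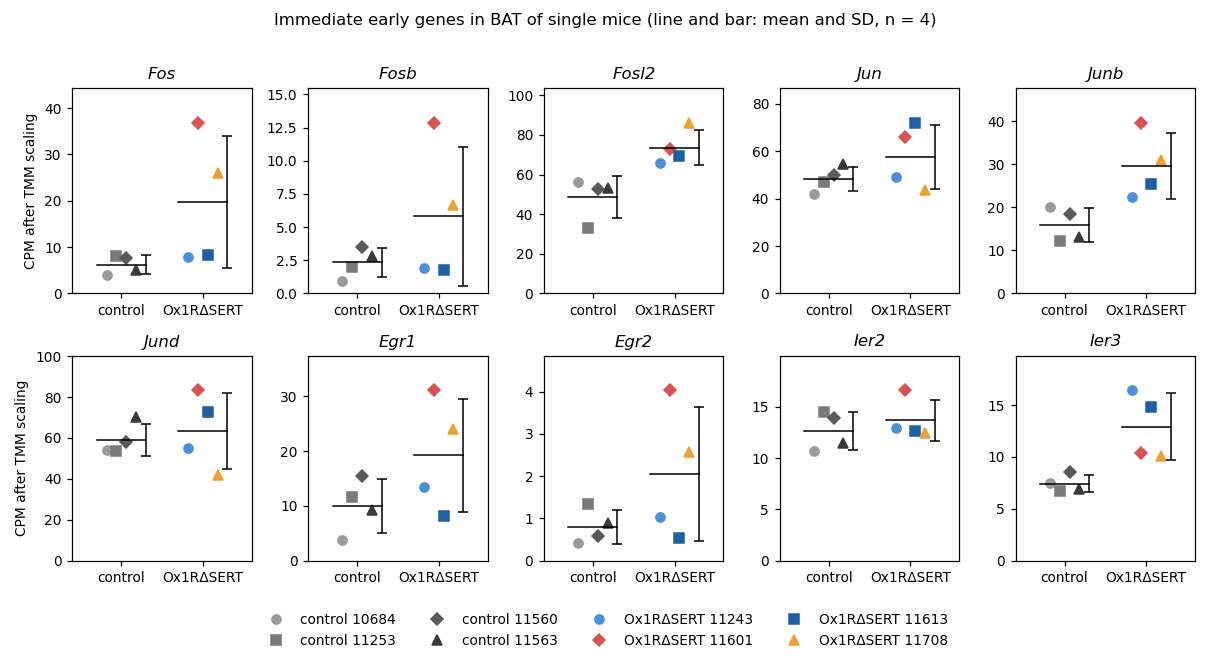
Normalized values (CPM after TMM scaling, linear axes from 0) of the 10 immediate early genes in single mice, with a line at the mean and a bar of 1 SD for each group of 4 mice. All 4 Ox1RΔSERT mice lie above all control mice for *Fosl2*, *Junb* and *Ier3*, whereas mice 11601 and 11708 (red diamond and orange triangle) stand apart for *Fos*, *Fosb*, *Egr1* and *Egr2*.

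*Fos*, the founding member of its family and the partner of *Jun* proteins in AP-1, had normalized values (CPM after TMM scaling, that is, counts relative to the effective size of each library) of 4.03, 8.15, 7.72 and 4.98 in control mice 10684, 11253, 11560 and 11563. In Ox1RΔSERT mice 11243, 11601, 11613 and 11708 it had 7.82, 36.9, 8.28 and 26.0, the order of mice that is kept below. Mouse 11601 was 5.93-fold and mouse 11708 was 4.19-fold over the control mean, and mouse 11613 was just above the highest control mouse, so that the groups overlapped by mouse 11243 alone. Control mice had a mean of 6.22 ± 2.03 (SD, n = 4) and Ox1RΔSERT mice one of 19.8 ± 14.2 (SD, n = 4). The log2 fold change was 1.67 (SE 0.52), with an adjusted p of 0.316 by edgeR and of 0.0372 by DESeq2. The two-sided exact permutation test over mice gave p = 0.0571, where 0.0286 is the smallest p that 4 mice against 4 allow. The log2 fold change was 0.38 (SE 0.29) without mice 11601 and 11708.

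*Fosb*, a paralog of *Fos* on chromosome 7 that also pairs with *Jun* proteins, was at 0.968, 2.03, 3.52 and 2.86 in control mice and at 1.94, 12.9, 1.75 and 6.66 in Ox1RΔSERT mice. Mice 11601 and 11708 were above all control mice, and the other Ox1RΔSERT mice lay within the control range. Its log2 fold change was 1.31 (SE 0.67), with an adjusted p of 0.369 by edgeR, and -0.34 without mice 11601 and 11708. *Fosl2*, which encodes FRA-2, a *Fos* protein without the strong activation domain of FOS, had 56.3, 33.1, 52.5 and 53.0 in control mice and 65.9, 73.0, 69.1 and 86.2 in Ox1RΔSERT mice. Every Ox1RΔSERT mouse was above every control mouse, and control mouse 11253 was the lowest of all 8 mice. The log2 fold change of *Fosl2* was 0.59 (SE 0.17), with an adjusted p of 0.316 by edgeR and an exact permutation p of 0.0286. With mice 11601 and 11708 left out it was 0.47 (SE 0.21).

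*Junb*, a *Jun* protein that activates less strongly than JUN and can hold JUN back, stood at 20.0, 12.1, 18.4 and 13.2 in control mice and 22.4, 39.7, 25.4 and 31.1 in Ox1RΔSERT mice. The lowest Ox1RΔSERT mouse, 11243, was above the highest control mouse, 10684, and mice 11601 and 11708 were the highest. The control mean was 15.9 ± 3.85 (SD, n = 4), that of Ox1RΔSERT mice was 29.7 ± 7.61 (SD, n = 4), and the log2 fold change was 0.90 (SE 0.22). The adjusted p was 0.316 by edgeR and 0.0288 by DESeq2, and the exact permutation p was 0.0286. This value was 0.59 (SE 0.22) without mice 11601 and 11708. *Junb* (chromosome 8, 84974484 to 84978718, minus strand) shares 173 exonic bases with *Prdx2* on the other strand, which was at 91.8 to 133 in the 8 mice and was lowest in mouse 11708, so its value is less sure where reads were not counted by strand.

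*Jun*, the main partner of *Fos* proteins, was at 42.1, 46.9, 50.0 and 54.4 in control mice and at 49.0, 66.0, 72.1 and 43.5 in Ox1RΔSERT mice. Mice 11601 and 11613 were above all control mice, while mouse 11708, among the highest for *Fos*, was near the lowest control mouse. *Jund*, the *Jun* gene that most cells express steadily, had 54.0, 53.8, 57.9 and 70.1 in control mice and 55.3, 83.5, 72.9 and 42.0 in Ox1RΔSERT mice. The same mice, 11601 and 11613, were above all control mice, and mouse 11708 was below all of them. The log2 fold changes were 0.25 (SE 0.17) for *Jun* and 0.11 (SE 0.20) for *Jund*, with adjusted p of 0.470 and 0.820 by edgeR and exact permutation p of 0.286 and 0.800. *Jun* and *Jund* share 232 and 877 exonic bases with the antisense genes *Junos* and *Gm11175*, which did not exceed 0.610 and 0.314.

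*Egr1*, which encodes a zinc finger factor that insulin and growth factors induce, stood at 3.71, 11.6, 15.4 and 9.31 in control mice and 13.5, 31.2, 8.24 and 24.1 in Ox1RΔSERT mice. Again mice 11601 and 11708 were above all control mice, and the others lay within the control range, which was wide because of the low value of mouse 10684. The log2 fold change was 0.94 (SE 0.49) with an adjusted p of 0.374 by edgeR, and 0.12 (SE 0.49) without mice 11601 and 11708. *Egr2*, a related factor known for myelination and for the start of adipocyte differentiation, was low, with 0.418, 1.33, 0.587 and 0.883 in control mice and 1.03, 4.04, 0.539 and 2.57 in Ox1RΔSERT mice. It rested on 16 to 205 counts a mouse. Its log2 fold change was 1.35 (SE 0.62) with an adjusted p of 0.340 by edgeR, and it was -0.02 without mice 11601 and 11708.

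*Ier3*, whose small protein takes part in the survival of stressed cells and which NF-kB induces, had 7.48, 6.75, 8.56 and 6.91 in control mice and 16.5, 10.3, 14.8 and 10.1 in Ox1RΔSERT mice. All 4 Ox1RΔSERT mice were above all control mice, and in contrast to *Fos* the highest were 11243 and 11613. Control mice averaged 7.43 ± 0.816 (SD, n = 4), Ox1RΔSERT mice averaged 12.9 ± 3.20 (SD, n = 4), and the log2 fold change was 0.80 (SE 0.18). The adjusted p was 0.316 by edgeR and 0.0305 by DESeq2, and the exact permutation p was 0.0286. The log2 fold change was 1.08 (SE 0.14) without mice 11601 and 11708. *Ier2*, a nuclear protein of the early response, was at 10.7, 14.5, 13.9 and 11.4 in control mice and at 12.9, 16.6, 12.7 and 12.5 in Ox1RΔSERT mice. Mouse 11601 alone was above the control range, and the log2 fold change was 0.11 (SE 0.14) with an adjusted p of 0.712 by edgeR. *Ier2* and *Junb* lie 311631 bases apart on chromosome 8 and differed in pattern.

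**Figure D2:**
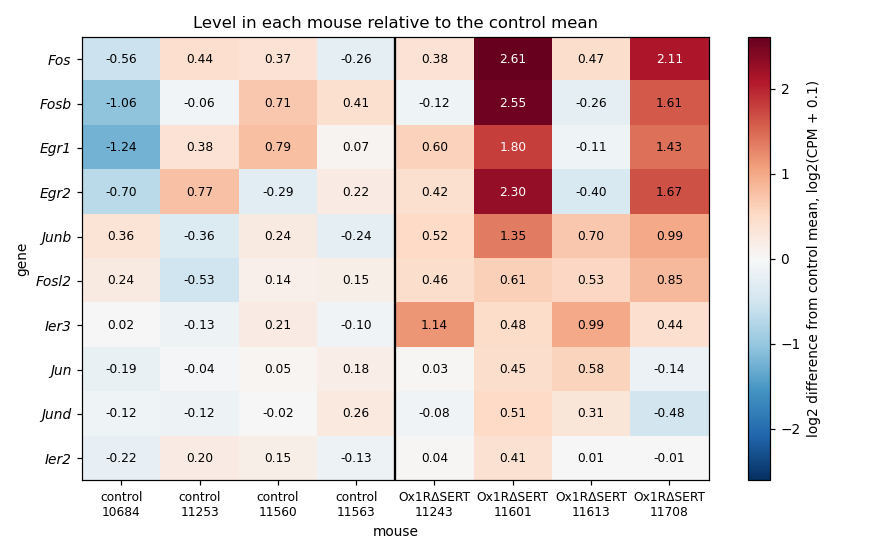
Level of each immediate early gene in each mouse as a log2 difference from the mean of the 4 control mice, with red for higher and blue for lower levels. Mouse 11601 is at 2.61 for *Fos*, 2.55 for *Fosb* and 2.30 for *Egr2*, whereas mouse 11243 has its largest difference, 1.14, at *Ier3*.

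Mice 11601 and 11708 had the 2 highest values of all 8 mice in 6 of the 10 members (*Fos*, *Fosb*, *Fosl2*, *Junb*, *Egr1* and *Egr2*), and the same was true of 20.1% of all tested genes. When both were left out, a choice made after the data had been seen, 2 members had an unadjusted p under 0.05, *Ier3* and *Junb*, against 1.66% of tested genes that were higher at that p. The groups did not overlap in the same 3 members (*Fosl2*, *Junb* and *Ier3*), against 5.27% of genes in that direction. Leaving mice out of groups that do not overlap can hardly make them overlap, so this is no separate check. The median log2 fold change of the members fell to 0.23. edgeR again called 0 genes, and 246 and 178 genes were higher and lower at an unadjusted p under 0.05. When mouse 11613 alone was left out, 7 members were higher at that p, with *Fosb*, *Egr1* and *Egr2* added, and 13.1% of all tested genes were higher at that p. *Jun* reached an unadjusted p of 0.0413 by edgeR when mouse 11708 was left out.

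**Figure D3:**
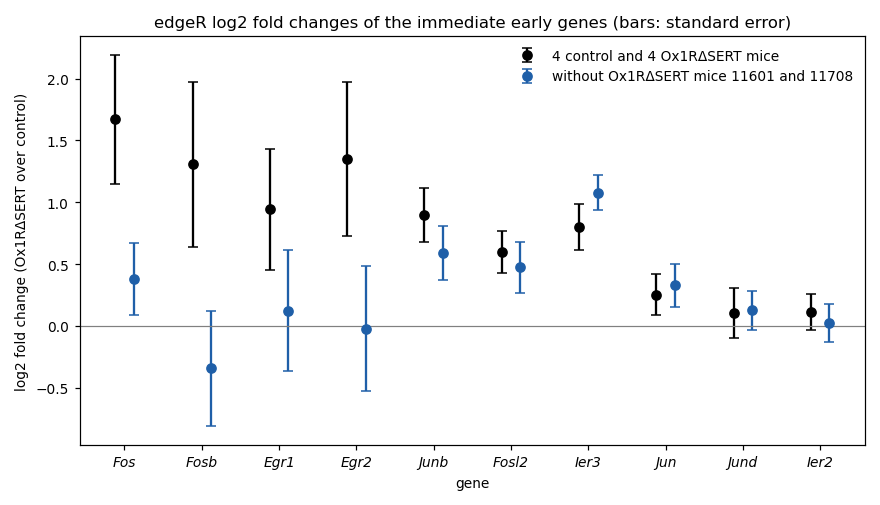
Log2 fold change of each immediate early gene (Ox1RΔSERT over control mice, edgeR), with a bar of 1 SE, in all 8 mice (black) and without Ox1RΔSERT mice 11601 and 11708 (blue). The values of *Fos*, *Fosb*, *Egr1* and *Egr2* move towards or past 0 without these mice, that of *Junb* falls from 0.90 to 0.59, and that of *Ier3* rises from 0.80 to 1.08.

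**Figure D4:**
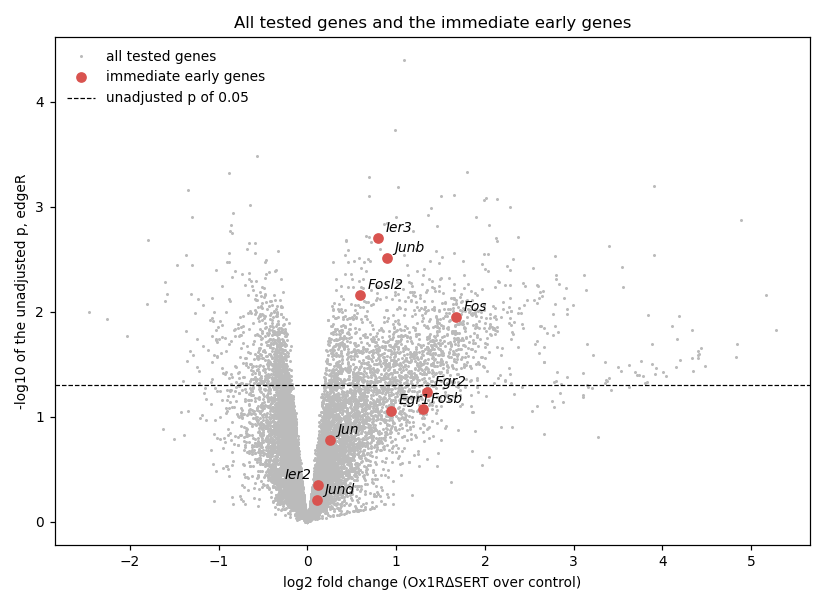
Log2 fold change (Ox1RΔSERT over control mice) and -log10 of the unadjusted edgeR value of p for the 14489 tested genes (grey) and the 10 immediate early genes (red), with a dashed line at the threshold of 0.05. *Ier3*, *Junb*, *Fosl2* and *Fos* lie above the line, and no gene has an adjusted p under 0.05.

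Levels were compared between members per transcript length, as TPM values, which are scaled to one sum in each mouse. The share of counts from genes of the mitochondrial genome was 40.0% to 46.8% in control mice and 33.6% to 44.6% in Ox1RΔSERT mice, and on log2(TPM + 0.1) the median log2 fold change of all tested genes was 0.32, so the order within a group is given and no difference between groups is read from TPM. In control mice *Jund* had the highest level, 23.3 ± 4.01 (SD, n = 4), followed by *Jun* at 15.1 ± 2.01 and *Junb* at 9.91 ± 2.48. *Ier2* at 9.25 ± 1.14 did not differ from *Junb* beyond this spread. Neither did *Fosl2* at 6.69 ± 1.71 from *Ier3* at 6.41 ± 0.866, or *Egr1* at 2.89 ± 1.37 from *Fos* at 2.66 ± 0.744. The SD is a spread between mice, so it does not compare 2 members within a mouse. *Fosb* at 0.548 ± 0.266 and *Egr2* at 0.231 ± 0.0968 were the lowest. In Ox1RΔSERT mice the order began with *Jund* at 31.4 ± 11.5 (SD, n = 4), *Junb* at 23.7 ± 9.94 and *Jun* at 22.8 ± 6.78, which did not differ beyond their spread. *Ier3* at 13.8 ± 1.25, *Fosl2* at 13.0 ± 3.23, *Ier2* at 12.6 ± 3.69, *Fos* at 11.7 ± 9.41 and *Egr1* at 7.34 ± 4.78 followed, with no neighbours that differed beyond their spread. *Fosb* at 1.89 ± 1.86 and *Egr2* at 0.843 ± 0.783 were again the lowest. Within the Ox1RΔSERT mice the TPM of *Fos* ranged from 3.32 to 22.97 and that of *Ier3* from 12.6 to 15.5.

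Ratios between members within a mouse do not depend on the scaling between libraries, and those given here were chosen after values had been seen and were not tested. The summed TPM of *Fos*, *Fosb* and *Fosl2* over that of *Jun*, *Junb* and *Jund* was 0.209, 0.194, 0.226 and 0.189 in control mice and 0.256, 0.370, 0.222 and 0.483 in Ox1RΔSERT mice. Only mouse 11613 lay within the control range. The ratio of *Junb* to *Jun* was 0.915, 0.526, 0.733 and 0.482 in control mice and 0.916, 1.19, 0.643 and 1.46 in Ox1RΔSERT mice, so that *Junb* exceeded *Jun* per length in mice 11601 and 11708 and in none of the others. The ratio of *Ier3* to *Ier2* was 0.836, 0.535, 0.718 and 0.715 in control mice and 1.51, 0.751, 1.48 and 0.954 in Ox1RΔSERT mice, where mouse 11601 alone lay within the control range.

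Since mice 11601 and 11708 form a cluster of their own, relations between members were read over the other 6 mice, on the scale of log2(CPM + 0.1). The highest Pearson's r was that of *Fos* and *Ier2*, 0.895 (exact permutation p = 0.0222, adjusted p = 0.333 over the 45 pairs), with Spearman's rho = 0.600 (exact permutation p = 0.242). The lowest p was that of *Jun* and *Jund*, with Pearson's r = 0.882 (exact permutation p = 0.00278) and Spearman's rho = 0.943 (exact permutation p = 0.0167), and an adjusted p of 0.125 for r. For *Fosl2* and *Junb* these were 0.864 (exact permutation p = 0.00556) and 0.943 (exact permutation p = 0.0167), and the adjusted p for r was 0.125. The 6 mice include both groups, and both genes were higher in each Ox1RΔSERT mouse than in every control mouse. This group difference alone can give a positive r, and the permutations did not keep the groups apart. The values for *Fosl2* and *Junb*, here and below, therefore do not show a relation within a group. None of the 45 pairs passed an adjusted p of 0.05 over the 6 mice. Over all 8 mice r was 0.695 for *Fos* and *Ier2*, 0.867 for *Jun* and *Jund* and 0.865 for *Fosl2* and *Junb*. Without the 2 mice farthest from the median of the first gene, r was 0.800 for *Jun* and *Jund* and 0.884 for *Fosl2* and *Junb*. For *Fos* and *Ier2* those 2 mice were 11601 and 11708 again, so r was the same 0.895 and is no separate check. Over all 8 mice the genes most like *Fos*, by Pearson's r among 12268 genes with a mean of at least 1, were *Hdac7* (0.988), *Ccn5* (0.987), *Tmem165* (0.985), *Trerf1* (0.984) and *Cmip* (0.981), each highest in mice 11601 and 11708. These values describe a likeness that rests on those mice, and of the other members *Egr2*, *Fosb* and *Egr1* ranked 646, 673 and 873.

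Other transcription factors of the early response were mixed in direction. Of 20 tested genes, 3 were higher at an unadjusted p under 0.05 by edgeR (*Ier5*, *Myc* and *Csrnp1*) and 2 were lower (*Nr4a2* and *Crem*), where 10.2% and 4.96% of all tested genes were higher and lower, and the median log2 fold change was 0.29. *Nr4a2*, an orphan nuclear receptor gene that cAMP induces, stood at 10.7, 5.39, 14.5 and 10.7 in control mice and 5.59, 5.07, 4.27 and 5.31 in Ox1RΔSERT mice. Its log2 fold change was -1.03 (SE 0.27) with an adjusted p of 0.0300 by DESeq2, and the groups overlapped by mouse 11243 and control mouse 11253. *Crem*, which encodes the cAMP-responsive modulator, was at -0.46 (SE 0.19). *Nr4a1*, which many of the same signals induce, was at -0.22 (SE 0.53), with 7.53, 30.6, 39.1 and 51.8 in control mice and 15.5, 23.5, 46.9 and 24.9 in Ox1RΔSERT mice.

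*Myc*, a driver of growth, had a log2 fold change of 0.76 (SE 0.31) and *Ier5* one of 0.76 (SE 0.27), both with mice 11601 and 11708 highest. *Csrnp1* was at 0.29 (SE 0.11). Values for the stress-responsive *Atf3* were 0.37 (SE 0.47), for *Klf4* 0.06 (SE 0.29) and for the antiproliferative *Btg2* 0.59 (SE 0.29), none with an unadjusted p under 0.05. Without mice 11601 and 11708, *Csrnp1* and *Klf2* were higher and *Nr4a2* was lower at that p, with *Nr4a2* at -1.07 (SE 0.37). Of the 14856 genes tested in that fit, 1.66% were higher and 178 genes were lower at that p.

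Feedback inhibitors are genes whose products end the early response, at the level of kinases, receptors or mRNA. Of 25 tested, 5 were higher at an unadjusted p under 0.05 by edgeR and 1 was lower, where 10.2% and 4.96% of all tested genes were. In 2, both higher, the groups did not overlap, against 2.69% of tested genes in that direction. *Zfp36*, the factor that binds AU-rich elements, had 26.4, 29.6, 28.7 and 24.9 in control mice and 37.5, 51.5, 36.5 and 51.7 in Ox1RΔSERT mice. Every Ox1RΔSERT mouse was above every control mouse, as for *Fosl2*, *Junb* and *Ier3*. The log2 fold change of *Zfp36* was 0.69 (SE 0.14), with an adjusted p of 0.00577 by DESeq2, and 0.44 (SE 0.10) without mice 11601 and 11708.

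*Socs3*, an inhibitor of cytokine and insulin receptor signals, was at 17.0, 4.53, 13.1 and 5.78 in control mice and at 18.8, 48.2, 19.3 and 43.0 in Ox1RΔSERT mice. The groups did not overlap, and the log2 fold change was 1.68 (SE 0.49) with an adjusted p of 0.0292 by DESeq2, and 0.92 (SE 0.49) without mice 11601 and 11708. *Nab2*, the corepressor of EGR1, was at 0.86 (SE 0.32), *Errfi1*, an inhibitor of the EGF receptor, at 0.78 (SE 0.31) and *Tnfaip3*, an inhibitor of NF-kB, at 0.92 (SE 0.36). The lower gene was *Dusp4*, a MAP kinase phosphatase, at -0.61 (SE 0.26), while *Dusp1*, the phosphatase most often induced along with *Fos*, was at -0.05 (SE 0.13). Without mice 11601 and 11708, *Zfp36* and *Zfp36l2* were higher at an unadjusted p under 0.05 and none of the list was lower. Of all tested genes, 1.66% were then higher at that p.

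Transcription factors and kinases upstream of the immediate early genes, and other AP-1 partners, were set beside all tested genes. For comparison, 10.2% and 4.96% of all tested genes were higher and lower at an unadjusted p under 0.05 by edgeR. In 2.69% the groups did not overlap in the higher direction. Of 15 tested transcription factors, *Elk4* (log2 fold change 0.21, SE 0.08) and *Crtc3* (0.35, SE 0.12) were higher at an unadjusted p under 0.05 by edgeR, both with groups that did not overlap, *Elk1* was lower (-0.36, SE 0.14), and the median was 0.09. *Srf* itself was at 0.27 (SE 0.23). Of 17 kinases, *Rps6ka3*, which encodes the ribosomal S6 kinase RSK2, was higher (0.42, SE 0.14) with groups that did not overlap, and the median was 0.04. Of 10 other AP-1 partners, *Batf* (1.48, SE 0.52), a partner known from immune cells, and *Mafk* (0.49, SE 0.19), a small *Maf* protein, were higher, the latter with groups that did not overlap, and the median was 0.37. Of these genes, *Crtc3* alone kept an unadjusted p under 0.05 without mice 11601 and 11708 (0.38, SE 0.16). In that fit 1.66% of all tested genes were higher at that p. *Rps6ka3* was then at 0.15 (SE 0.09), *Elk4* at 0.20 (SE 0.09) and *Elk1* at -0.33 (SE 0.19). *Batf* was at 0.29 (SE 0.38) and *Mafk* at 0.35 (SE 0.22).

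Among secreted and other early targets, 6 of 13 tested genes were higher at an unadjusted p under 0.05 by edgeR and none was lower, where 10.2% and 4.96% of all tested genes were. The median log2 fold change was 0.74, and mice 11601 and 11708 were the 2 highest mice in 9 of the 13, against 20.1% of all tested genes. *Timp1*, an inhibitor of matrix proteases, was at 3.40, 1.71, 2.51 and 3.09 in control mice and at 2.86, 40.5, 4.80 and 32.8 in Ox1RΔSERT mice. The neutrophil attractants *Cxcl1* and *Cxcl2* had log2 fold changes of 2.60 (SE 0.71) and 2.66 (SE 0.87). *Thbs1*, which encodes the matrix protein thrombospondin 1, was at 24.2, 51.1, 36.2 and 35.8 in control mice and at 59.1, 237, 58.1 and 249 in Ox1RΔSERT mice.

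For *Thbs1* and *Cxcl1* the groups did not overlap, against 2.69% of tested genes in that direction. *Plaur* (1.53, SE 0.53), the receptor of urokinase, was high in mice 11601 and 11708 alone. The remaining gene was *Plk2* (0.74, SE 0.31), which encodes a kinase. Without mice 11601 and 11708, *Thbs1* was the single gene of this list that was higher at an unadjusted p under 0.05 (0.68, SE 0.25). The share of all tested genes was 1.66%. The median of the list fell to 0.14.

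Markers of other cell types moved with these mice. All 12 macrophage markers were higher at an unadjusted p under 0.05 by edgeR, where 10.2% of all tested genes were. Mice 11601 and 11708 were the 2 highest mice for each of the 12, against 20.1% of all tested genes. Their summed normalized value was 153 to 332 in control mice and 242, 1137, 273 and 886 in Ox1RΔSERT mice 11243, 11601, 11613 and 11708, and none of the 12 was at 0. All 7 fibroblast markers were also higher, with sums of 408 to 1082 in control mice and 718, 5679, 1040 and 2653 in Ox1RΔSERT mice. Mice 11243 and 11613, which had the highest *Ier3*, lay within the control range of both sums. The part of these cell types in the level of any member, *Ier3* among them, was not tested. Without mice 11601 and 11708, 0 macrophage markers and 1 fibroblast marker, *Pi16*, had an unadjusted p under 0.05. Of all tested genes, 1.66% were then higher at that p. The median log2 fold change was then 0.27 for the macrophage markers and 0.43 for the fibroblast markers. It was 0.23 for the members and -0.012 for all tested genes.

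**Figure D5:**
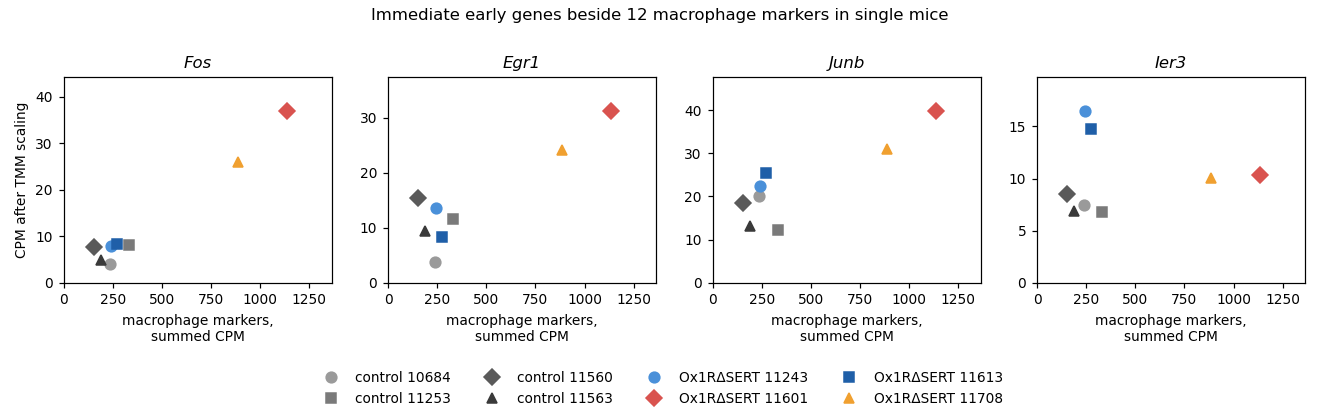
Normalized value (CPM after TMM scaling) of *Fos*, *Egr1*, *Junb* and *Ier3* in single mice against the summed normalized value of 12 macrophage markers, on linear axes from 0. Mice 11601 and 11708 lie apart at sums of 1137 and 886 and are the highest for *Fos*, *Egr1* and *Junb*, whereas for *Ier3* mice 11243 and 11613 are highest at sums of 242 and 273.

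Markers of brown adipocytes were lower at an unadjusted p under 0.05 by edgeR in 3 of 12 (*Ucp1*, *Dio2* and *Elovl3*) and higher in none, where 4.96% of all tested genes were lower. The groups did not overlap in 1, *Elovl3*, where 2.81% of tested genes did not overlap in that direction. Their sum was 14935 to 16024 in control mice and 14214, 10568, 13913 and 9933 in Ox1RΔSERT mice, lowest in mice 11708 and 11601. *Elovl3* alone kept an unadjusted p under 0.05 without these mice (-0.73, SE 0.23), where 178 of 14856 tested genes were lower at that p. *Ucp1* went from -0.54 (SE 0.18) to -0.34 (SE 0.18) and *Dio2* from -1.22 (SE 0.50) to -0.87 (SE 0.61). Skeletal muscle markers, with a sum of 1857 in control mouse 11253 and 2535 in mouse 11708, were at 17.3 to 243 in the other 6 mice. Mouse 11253 had the lowest *Fosl2* and mouse 11708 the lowest *Jund* of all 8 mice, and the part of muscle in those values was not tested.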

How the data were processed

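The authors prepared stranded libraries from poly-A selected RNA of BAT, sequenced them and quantified genes with Salmon 0.14.1 in an nf-core pipeline on GRCm38. STAR is also named in the submitters' processing notes, and the annotation release is not given in the sources used here. The deposited files hold estimated counts, which are not normalized, and TPM values, which the authors scaled by transcript length and to one sum a mouse. Whether quantification used strand is not given in the sources used here. RNA was extracted from tissue that had been frozen, and no extraction or sequencing batch is given in the labels.

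Symbols and positions came from GENCODE M21 (GRCm38). Estimated counts were rounded and fitted over all 8 mice with edgeR 4.0.16 (filterByExpr, TMM, quasi-likelihood test, Benjamini-Hochberg adjustment over all 14489 tested genes) in R 4.3.3. SE values were derived from F. CPM after TMM served as the normalized value, with a pseudocount of 0.1 on the log2 scale for single mice. Exact permutation tests covered all 70 assignments of mice, two-sided. Alternatives were DESeq2 1.42.0, limma 3.58.1, other scalings and filters, and mice left out. A floor of 3 counts is a normalized value of 0.0592 to 0.0951, and counting error was not weighed against the spread between mice. Scripts were tested on simulated data. The members and the gene lists were chosen with earlier results of these data known. Named genes were all members, a few preset genes, the 5 genes most like *Fos*, and up to 6 genes a list with an unadjusted p under 0.05 or groups that did not overlap, lowest p first, and a gene that was also named outside this rule was chosen after its values were seen. An item of these lists is not reported here. Labels give separate mice as samples, numbered by mouse.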

Additional observations from a re-analysis of the deposited data

Results flagged for a closer look

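In groups of 4 mice, a highest or lowest mouse was singled out where its gap to the next mouse took more of the range of the group than Dixon's critical value allows, which chance gives in about 1 of 20 groups, and 20 groups of immediate early genes were examined. *Fosl2* in control mouse 11253 was singled out, at a normalized value of 33.1 against 52.5 to 56.3 in the other control mice. Without that mouse the log2 fold change of *Fosl2* was 0.43. *Ier2* in Ox1RΔSERT mouse 11601 was singled out, at 16.6 against 12.5 to 12.9 in the other Ox1RΔSERT mice. Without that mouse the log2 fold change of *Ier2* was 0.0047.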

How the results depend on the processing

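DESeq2 called 265 genes where edgeR called 0. The count of immediate early genes with an unadjusted p under 0.05, 4 by edgeR, was 7 with DESeq2, 8 with library size scaling, 4 to 7 with 1 mouse left out (7 without mouse 11613) and 2 without mice 11601 and 11708. Over all tested genes, the share that was higher at that p was 10.2% with edgeR (14489 genes) and 7.56% with DESeq2 (24200 genes). The genes of DESeq2 had passed no filter on low counts, so these shares are not over the same genes. The share was 20.8% with library size scaling, 4.84% to 13.9% with 1 mouse left out and 1.66% without mice 11601 and 11708. The median log2 fold change of the members, 0.85, was 0.60 to 0.92 with 1 mouse left out and 0.23 without mice 11601 and 11708. Groups did not overlap in 3 to 4 members with 1 mouse left out, a count that leaving out a mouse can raise but hardly lower. The share of all tested genes was not computed for those settings. In the same direction it was 2.69% with all 8 mice and 5.27% without mice 11601 and 11708. Of the 45 pairs of members, 8 passed an adjusted p of 0.05 for Pearson's r over 8 mice, and 15 did on log2(TPM + 0.1). By Spearman's rho over the same 8 mice, on log2(CPM + 0.1), 0 pairs passed it. The direction turned for *Jund* without mouse 11601 (-0.055, in a range of -0.055 to 0.26 with 1 mouse left out) and for *Fosb* (-0.34) and *Egr2* (-0.021) without mice 11601 and 11708. Adjusted p over all alternatives ranged from 0.0372 to 0.996 for *Fos*, from 0.0288 to 0.996 for *Junb*, from 0.0703 to 0.996 for *Fosl2* and from 0.0305 to 0.736 for *Ier3*. Library size scaling and TPM moved the median log2 fold change of all tested genes to 0.22, 0.23 and 0.32, and with them 97.2% to 99.0% of the genes at an unadjusted p under 0.05 were higher, against 67.3% with TMM and 54.4% with limma voom. The causes were not tested. No paired analysis was possible because the labels give the mice no shared replicate numbers. Depth limited *Egr2* most, with 16 counts in its lowest mouse.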

Other observations

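Heat shock genes, which cells transcribe early under heat and protein damage, were not higher. Of 9 tested, 0 were higher and 3 were lower at an unadjusted p under 0.05 by edgeR (*Hspa8*, *Hspd1* and *Hspe1*), where 10.2% and 4.96% of all tested genes were. The median log2 fold change was -0.50, and mice 11601 and 11708 were not the 2 highest mice in any of the 9, against 20.1% of all tested genes. *Hspd1*, a chaperonin of mitochondria, stood at normalized values of 914 (mouse 10684), 939 (mouse 11253), 1256 (mouse 11560) and 1230 (mouse 11563) in the control group. The Ox1RΔSERT group stood at 862 (mouse 11243), 695 (mouse 11601), 906 (mouse 11613) and 733 (mouse 11708), all below the control mice. The inducible *Hspa1a* and *Hspa1b* varied far more within the groups, with *Hspa1a* at 5.34 to 106 in control mice and at 13.6 to 103 in Ox1RΔSERT mice. Mouse 11613 was the highest of the Ox1RΔSERT mice for *Hspa1a*, and mouse 11601 was at 27.3. When mice 11601 and 11708 were left out, none of the 9 passed an unadjusted p of 0.05.

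Among the remaining marker lists, 2 of 6 tested neutrophil markers were higher at an unadjusted p under 0.05 (*Csf3r* and *Cxcr2*), as was 1 of 7 endothelial markers, *Cldn5*, a junction protein. Of all tested genes, 10.2% were higher at that p. Without mice 11601 and 11708, 0 of the neutrophil markers had such a p, with *Csf3r* at a log2 fold change of 0.50 (SE 0.39) and *Cxcr2* at 0.49 (SE 0.40), and *Cldn5* was at 1.21 (SE 0.45). In all 8 mice none passed it among 2 tested lymphocyte, 6 mural cell, 10 skeletal muscle, 5 erythroid and 4 Schwann cell and nerve markers.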
